A study of Homo sapiens with 22 samples.

Results

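The genes described here encode the protein subunits of the mitochondrial ribosome, and were taken by symbol: every RefSeq protein-coding gene whose symbol starts with MRPL or MRPS followed by a digit. The rule gave 77 of 20033 protein-coding genes, 49 with an MRPL and 28 with an MRPS symbol. The cells were THP-1, an established human monocytic leukaemia line. All carried a lentivirus, with a short hairpin against QKI5 in the knockdown group and a control hairpin in the control group. The sample labels name this control hairpin, while the text on the series' design has untreated cells in its place; the labels were followed. The labels do not say whether a group is 1 clone or a pool of infected cells.

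The study mapped H3K4me3, RNA polymerase II (Pol II) and the RNA bound by QKI5 in both groups. Chromatin immunoprecipitation (ChIP) followed by sequencing finds DNA that carries a histone mark or is bound by a protein, and crosslinking immunoprecipitation (CLIP) finds the RNA that a protein touches. The 22 samples form 10 groups, with 2 H3K4me3, 2 Pol II and 2 CLIP samples per condition and their inputs. The ChIP inputs numbered 2 in control and 4 in knockdown, and the CLIP inputs 2 in each. For every assay the authors merged the replicates of a condition into a single peak list, 6 lists in all, so the spread between replicates cannot be measured and no difference between conditions carries a p-value.

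The mitochondrial ribosome translates the few messenger RNAs that the mitochondrial genome encodes, all for subunits of the respiratory chain and ATP synthase. Its ribosomal RNAs come from mitochondrial DNA, but its proteins are encoded in the nucleus, made in the cytosol and imported, so their genes are transcribed by Pol II and carry H3K4me3, the mark of active promoters. NRF1, the ETS factor GABP and YY1 are known at promoters of nuclear genes for mitochondrial proteins. QKI5 is the nuclear isoform of Quaking, an RNA-binding protein of the STAR family with known roles in splicing. MRPL and MRPS symbols stand for the large and the small subunit, although the proteins of MRPS18A and MRPS30 sit in the large subunit.

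The H3K4me3 lists held 21953 control and 21358 knockdown peaks, and the Pol II lists 33370 and 35094. A ChIP peak in these lists has a position and a width but no usable height, so width is the only measure; the narrowest allowed width was 501 bp. Fewer cells with a mark and less of it per cell cannot be told apart in such bulk lists. Of 15 myeloid marker genes, 13 had an H3K4me3 peak within 1 kb of a gene end in both lists, against 2 of 5 B cell, 2 of 5 T and NK cell, 1 of 5 fibroblast, 0 of 5 erythroid and 0 of 5 epithelial markers. Peak lists give no transcript level, so the depletion of QKI itself was not checked here; the QKI gene had 1 CLIP row in control and 0 in knockdown. A gene was counted as marked when a peak lay within 1 kb of either of its ends, called a gene-end peak below, and its width is that of the widest such peak.

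The promoters of 69 of the 77 genes are in RefSeq's table of start sites (GRCh38.p14), which gives 250 bases before to 50 after each start. Searched on both strands for exact matches, these windows held the YY1 site AAGATGGCG in 13 cases (18.8%), against 2.74% of all 15842 protein-coding promoters in the table. The stretches below run from 40 bases before to 30 after the start, 5′ to 3′ on the gene's strand, with the YY1 site in capitals. They are shown because in each the site lies just downstream of the start, on the sense strand.

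MRPL38, chr17:75904855-75904924, minus strand: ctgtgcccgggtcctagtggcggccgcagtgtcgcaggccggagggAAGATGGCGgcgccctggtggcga
MRPL42, chr12:93467474-93467543, plus strand: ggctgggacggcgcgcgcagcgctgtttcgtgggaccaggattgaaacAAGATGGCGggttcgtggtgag
MRPL46, chr15:88467359-88467428, minus strand: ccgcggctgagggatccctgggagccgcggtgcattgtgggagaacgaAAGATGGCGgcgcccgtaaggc
MRPS10, chr6:42217832-42217901, minus strand: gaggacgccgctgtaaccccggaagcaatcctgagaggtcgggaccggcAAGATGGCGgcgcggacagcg
MRPS18A, chr6:43687762-43687831, minus strand: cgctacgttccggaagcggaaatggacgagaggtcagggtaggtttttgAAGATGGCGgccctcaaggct
MRPS24, chr7:43869488-43869557, minus strand: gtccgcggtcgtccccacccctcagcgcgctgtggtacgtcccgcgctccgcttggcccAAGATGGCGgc
MRPS30, chr5:44808907-44808976, plus strand: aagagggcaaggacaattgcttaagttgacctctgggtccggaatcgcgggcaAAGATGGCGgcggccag

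In 10 of the 13 promoters with the YY1 site (76.9%) it lay on the sense strand after the start, as it did in 279 of the 434 promoters of all genes that held it (64.3%). The other 3 were MRPL32, MRPL36 and MRPL52. In MRPL32 the match is on the opposite strand, and counted from the start of the divergent neighbour PSMA2, a proteasome subunit gene, it spans positions 14 to 22 on PSMA2's sense strand.

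ETS sites were also found at a higher share than in all promoters. ACCGGAAG was in 10 promoters (14.5%, against 3.11% of all) and CCGGAAGT in 11 (15.9%, against 6.19%); the 2 overlap in ACCGGAAGT, and 17 promoters held either (24.6%, against 7.61%). The stretches below run from 60 bases before to 30 after the start (GRCh38.p14), with ETS sites in capitals on either strand. They are examples with sites close to the start. Promoters not printed, such as those of MRPL16 and MRPL52, held sites as close.

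MRPL27, chr17:50373155-50373244, minus strand: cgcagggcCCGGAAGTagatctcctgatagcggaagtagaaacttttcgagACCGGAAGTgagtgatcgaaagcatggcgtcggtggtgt
MRPL3, chr3:131502942-131503031, minus strand: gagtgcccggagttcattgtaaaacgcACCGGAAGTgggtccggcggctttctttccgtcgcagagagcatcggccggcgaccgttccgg
MRPL43, chr10:100987468-100987557, minus strand: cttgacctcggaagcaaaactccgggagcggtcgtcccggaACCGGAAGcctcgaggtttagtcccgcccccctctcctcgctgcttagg
MRPS21, chr1:150293801-150293890, plus strand: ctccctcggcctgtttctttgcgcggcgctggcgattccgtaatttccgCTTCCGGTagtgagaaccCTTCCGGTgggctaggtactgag
MRPS23, chr17:57850015-57850104, minus strand: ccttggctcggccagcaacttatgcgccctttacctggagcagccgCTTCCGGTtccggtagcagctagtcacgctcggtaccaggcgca
MRPS34, chr16:1773105-1773194, minus strand: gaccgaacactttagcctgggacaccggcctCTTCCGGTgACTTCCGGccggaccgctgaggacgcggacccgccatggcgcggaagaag

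The NRF1 core GCATGCGC was in 6 promoters (8.7%, against 4.26% of all), those of MRPL17, MRPL22, MRPL32, MRPL52, MRPS18B and MRPS18C. The whole NRF1 palindrome, the core with GC added before it, was in that of MRPL17 alone (1.45%, against 1.75%). The 2 stretches below run from 100 bases before to 30 after the start (GRCh38.p14), with the NRF1 letters in capitals, and show the promoter with most NRF1 matches and the one whose match lies nearest upstream of its start.

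MRPL17, chr11:6683311-6683440, minus strand: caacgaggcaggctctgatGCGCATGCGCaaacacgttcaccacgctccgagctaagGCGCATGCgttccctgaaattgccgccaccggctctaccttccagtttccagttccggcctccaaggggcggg
MRPS18B, chr6:30617740-30617869, plus strand: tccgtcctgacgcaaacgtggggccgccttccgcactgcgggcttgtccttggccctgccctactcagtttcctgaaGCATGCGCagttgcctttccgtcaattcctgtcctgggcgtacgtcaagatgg

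Shares of general promoter elements were close to or below those of all promoters. The SP1 site GGGGCGGGG was in 24.6% of the members' promoters and 22.4% of all, the E-box CACGTG in 8.7% and 8.88%, CCAAT in 29.0% and 36.4%, and TATAAA in 2.9% and 9.63%. MRPL54 and MRPS15 held the TATAAA matches. An NRF1 core, an ETS site or the YY1 site was in 29 of the 69 (42.0%, against 13.4% of all). The median GC content was 60.3% in the members' windows and 62.7% in all. Since nearly all these genes are marked, the shares were also taken among the 10689 promoters with a control H3K4me3 peak within 1 kb of the start: there the YY1 site was in 19.4% of 67 members' promoters and 3.94% of all, and either ETS site in 25.4% and 10.6%. In the same marked promoters the NRF1 core was in 8.96% and 5.52%, and the SP1 site in 23.9% and 28.6%. A match is a match of letters and shows no bound factor.

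**Figure D1:**
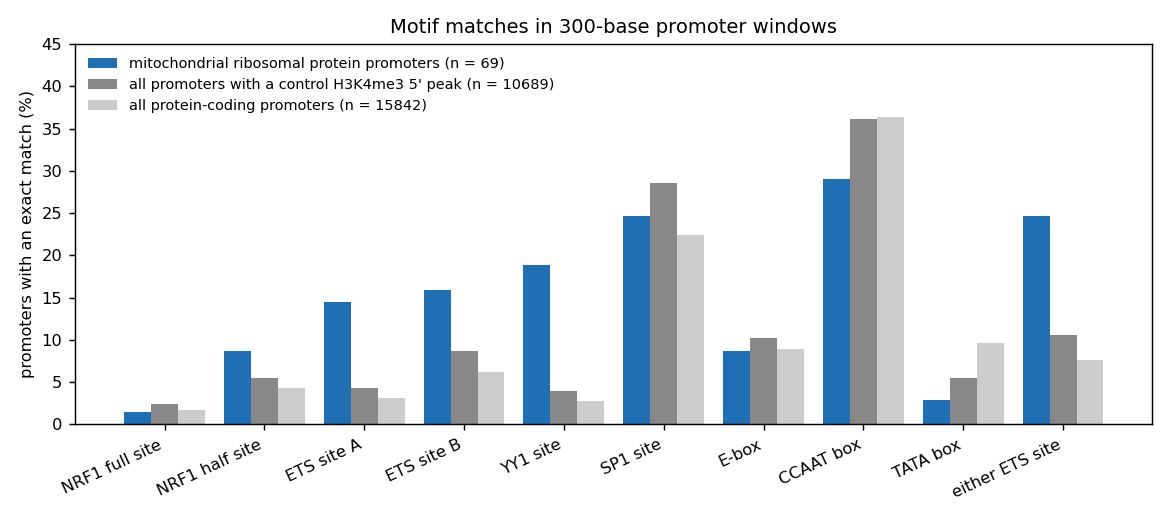
Share of promoter windows (percent, bars from 0) with an exact match on either strand, for the 69 mitochondrial ribosomal protein promoters, all promoters with a control H3K4me3 peak at the 5′ end (10689) and all protein-coding promoters (15842). The YY1 bar (18.8%) and the bar for either ETS site (24.6%) stand above both grey bars, while the SP1, E-box and CCAAT bars lie near or below them.

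Nearly every mitochondrial ribosomal protein gene was marked in both conditions. H3K4me3 was present in both lists at 73 of the 77 genes (94.8%, 95% exact Clopper-Pearson interval 87.2 to 98.6, which covers counting error only), against 66.6% of all protein-coding genes. Pol II was present in both lists at 74 (96.1%, 89.0 to 99.2), against 57.6%. All 4 lists marked 73 genes (94.8%, background 55.6%), and for the 78 genes of cytosolic ribosomal proteins, which form the ribosome outside mitochondria, the count was 77. All 28 MRPS genes and 45 of the 49 MRPL genes were in all 4 lists.

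The genes that missed a list were MRPL23, MRPL24, MRPL44 and MRPL45, all with MRPL symbols. H3K4me3 was counted in the control list alone at 1 gene (MRPL45, background 0.554%), in the knockdown list alone at 1 (MRPL24, background 0.779%) and in neither at 2 (MRPL23 and MRPL44, background 32.0%). Pol II was counted in neither list at 3 (MRPL23, MRPL44 and MRPL45, background 36.5%). At 0 genes was Pol II in the control list alone (background 1.91%) or in the knockdown list alone (background 3.97%).

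For MRPL24 and MRPL44 the missing call came from the distance to the gene's end. MRPL24, a large-subunit protein with a bacterial homologue, had a control H3K4me3 peak of 2811 bp at chr1:156738743-156741553 (GRCh38.p5, as all peak positions here) that overlapped the gene but ended over 1 kb short of its end. The knockdown peak, 2690 bp at chr1:156739344-156742033, lay nearer the end and was counted. Pol II marked the gene in both conditions, with widths of 2162 bp (control) and 1852 bp (knockdown). MRPL44, a large-subunit protein with a ribonuclease III-like fold, had a control H3K4me3 peak of 7828 bp (chr2:223956166-223963993), a knockdown one of 7316 bp (chr2:223956273-223963588) and Pol II peaks of 3310 and 3205 bp, all inside its RefSeq span and over 1 kb from either end. Its chromatin was therefore marked in all 4 lists, though not at the ends of the span.

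MRPL45 had the narrowest H3K4me3 peak of any member with a peak. Its protein lies near the exit of the polypeptide tunnel, where the mitochondrial ribosome meets the inner membrane. The only H3K4me3 peak was 1350 bp wide, in control, at chr17:38296523-38297872, and the nearest in knockdown lay 27169 bp from the gene. The nearest control Pol II peak lay 27378 bp away, and in knockdown a peak of the minimum width, 501 bp, lay 4435 bp away.

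MRPL23 lay in a stretch empty of peaks. No peak of the 4 lists fell within 5 kb of it, and the nearest were 122610 bp (control) and 123697 bp (knockdown) away for H3K4me3 and 182689 and 174494 bp for Pol II. The stretch without any ChIP peak ran from 1772942 to 2137553 on chromosome 11, 364612 bp, and holds 6 protein-coding genes: SYT8, TNNI2, LSP1, PRR33, TNNT3 and MRPL23. TNNI2 and TNNT3 encode troponins of fast skeletal muscle, and LSP1 a leukocyte actin-binding protein. Neither CLIP list had a row there. Empty stretches of this kind are common: 1550 in the genome were at least as long and 105 held at least as many protein-coding genes.

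**Figure D2:**
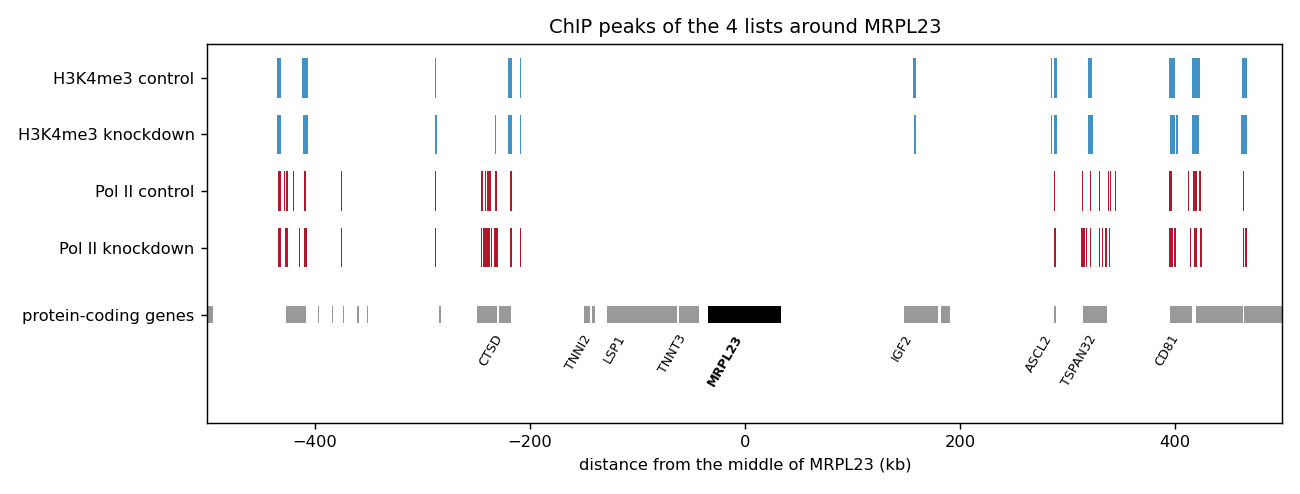
Peaks of the 4 ChIP lists (blue H3K4me3, red Pol II) and protein-coding genes (grey, MRPL23 black) within 500 kb of the middle of MRPL23; the x axis is the distance in kb. No peak of any list lies over MRPL23, TNNT3, LSP1 or TNNI2, and peaks resume on both sides in all 4 lists.

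The H3K4me3 peaks of the 73 genes marked in both conditions were wider at the median than those of all genes. Their median width was 4499 bp in control (2467 to 11271) and 4001 bp in knockdown (2342 to 10333), against 3886 and 3747 bp over all genes and 5575 and 5431 bp over the cytosolic ribosomal protein genes. The median log2 ratio of width, knockdown over control, was -0.08 (quartiles -0.21 and 0.02) against -0.04 over all genes. The peak was narrower in knockdown at 49 of 73 (67.1%, background 57.8%). Only 1 gene was over 1.5-fold wider (background 1.96%) and 2 were over 1.5-fold narrower (background 2.22%), shares near the background.

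The narrower peaks were mostly those of MRPL genes. Of 45 MRPL genes 35 were narrower in knockdown, with median widths of 4626 bp (control) and 4020 bp (knockdown) and a median log2 ratio of -0.09. Of 28 MRPS genes 14 were narrower, with medians of 3785.5 and 3625.5 bp and a median log2 ratio of 0.00. The difference between the MRPL and MRPS genes was not tested.

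The widest control H3K4me3 peaks were at MRPS16, MRPL55 and MRPL35. MRPS16, a small-subunit protein with a bacterial homologue, had a control peak of 11271 bp (chr10:73243511-73254781) and a widest knockdown peak of 5528 bp, a log2 ratio of -1.03. The knockdown list held 2 peaks in place of the single control peak, together 10616 bp, a log2 ratio of -0.09 over the locus. The control peak also reached a gene end of FAM149B1, DNAJC9 and CFAP70. MRPL55, a subunit found only in mitochondrial ribosomes, had 10432 bp in control (chr1:228100992-228111423) and 10333 bp in knockdown, and MRPL35, next to the MICOS gene IMMT, had 9721 and 9416 bp. Apart from MRPL45, the narrowest control peaks were those of MRPL19 (2467 bp, 2342 bp in knockdown) and MRPL52 (2470 bp).

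MRPL11 showed the largest narrowing of a single peak. Its protein forms the base of the stalk that recruits translation factors. The control H3K4me3 peak was 4554 bp (chr11:66435002-66439555) and the knockdown peak 2564 bp (chr11:66436715-66439278), a log2 ratio of -0.83. Most of the difference lay downstream of the start: the peak reached 3846 bp downstream in control, past the end of the 3774 bp gene, and 2133 bp in knockdown. MRPS9 (3655 and 2526 bp, log2 ratio -0.53), MRPS28 (3820 and 2865 bp, -0.42) and MRPL42 (3531 and 2663 bp, -0.41) followed.

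Widening was smaller and rarer. MRPL52 had the largest log2 ratio, 0.74, from 2470 bp in control to 4136 bp in knockdown, but the knockdown value is another peak, at the gene's other end; at its 5′ end the widths were 2470 and 3344 bp, a log2 ratio of 0.44. MRPL4, whose bacterial homologue lines the exit tunnel, had 2840 and 3886 bp (log2 ratio 0.45), MRPS18A 3499 and 4710 bp (0.43), MRPS17 2962 and 3759 bp (0.34) and MRPL16 2624 and 3087 bp (0.23). None of these 5 genes except MRPL52 passed 1.5-fold.

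**Figure D3:**
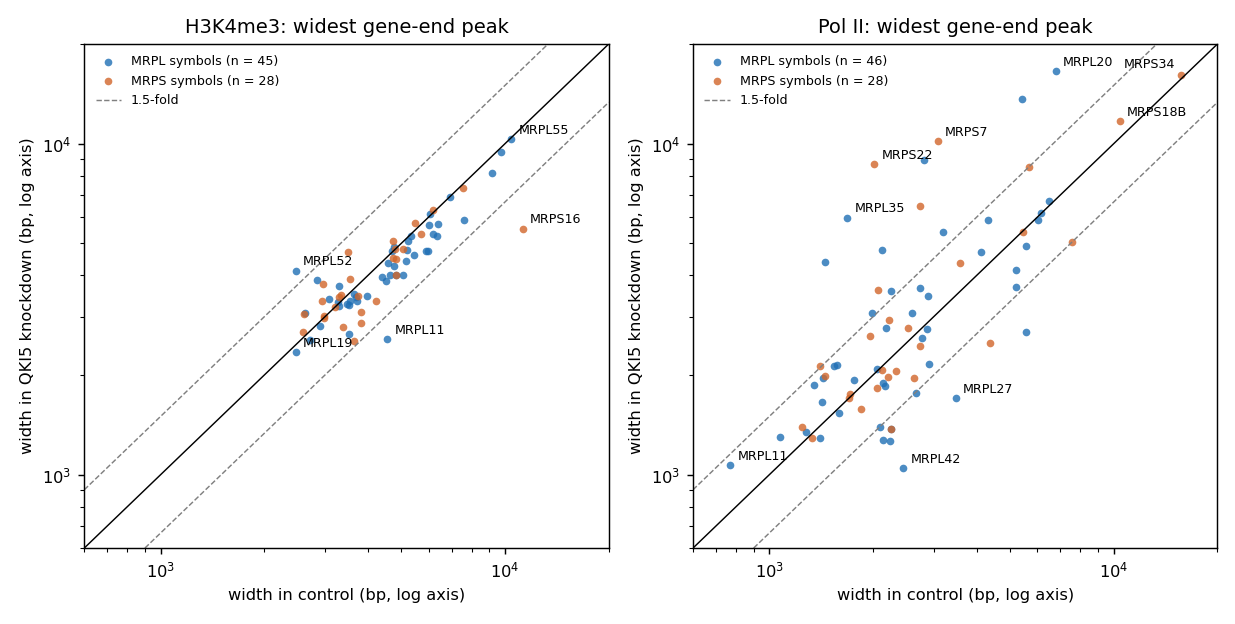
Width of the widest gene-end peak in control (x axis, bp, log) and in QKI5 knockdown (y axis, bp, log) for each mitochondrial ribosomal protein gene with a peak in both lists, H3K4me3 left (45 MRPL and 28 MRPS symbols) and Pol II right (46 and 28). The solid line is equal width and the dashed lines 1.5-fold; H3K4me3 points stay close to the solid line, while 14 Pol II points lie above and 10 below the dashed lines.

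Pol II widths moved more than H3K4me3 widths at single genes, in both directions, and about as often as at other genes. At the 74 genes with Pol II in both lists the median was 2253.5 bp in control (770 to 15719) and 2539 bp in knockdown (1045 to 16546), against 2325 and 2479 bp over all genes. The median log2 ratio was 0.07 (quartiles -0.18 and 0.46) against 0.08 over all genes. The peak was narrower in knockdown at 32 of 74 (43.2%, background 42.6%), over 1.5-fold wider at 14 (background 17.4%) and over 1.5-fold narrower at 10 (background 9.9%). A measure added after seeing the data summed all peaks over the locus of the control peak. By it 8 of 73 were over 1.5-fold wider and 12 over 1.5-fold narrower. These counts depend on the list that sets the locus. MRPL10 had a log2 ratio of -0.59 over the control peak's locus and 1.14 over that of the knockdown peak. For MRPL28 the values were -0.28 and 1.41. No share over all genes was taken for the locus sum. By the widest peak, 27 MRPL genes were wider and 19 narrower, and among MRPS genes 15 and 13.

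MRPL42, a subunit found only in mitochondrial ribosomes, had the largest narrowing. Its Pol II peak at the start was 2451 bp in control (chr12:93466981-93469431) and 1045 bp in knockdown, a log2 ratio of -1.23. The peak reached 1917 bp into the gene in control and 578 bp in knockdown. It was the only one of the 5 most narrowed Pol II genes that was also among the 5 most narrowed H3K4me3 genes. MRPL27, whose bacterial homologue lies at the peptidyl transferase centre, had 3476 and 1704 bp (log2 ratio -1.03). Its promoter is printed above, with 3 ETS matches if overlapping ones are counted apart. MRPL14 had 2239 and 1268 bp (-0.82). MRPS15 had 4374 and 2498 bp (-0.81), in a peak that also marks CSF3R, the receptor for granulocyte colony-stimulating factor. For MRPL48 the widest peak was at the 3′ end, 5557 bp in control and 2693 bp in knockdown (-1.05), with a log2 ratio of -0.30 over the locus; at its 5′ end the peak was 2639 and 1764 bp.

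The 5 largest rises in Pol II width did not compare like with like, and most were smaller when the same locus or the same end was measured. MRPS22, mutated in a mitochondrial translation deficiency, went from 2014 to 8677 bp (log2 ratio 2.11), where the knockdown list had 1 peak in place of 3 control peaks that together covered 6434 bp (0.43 over the locus). Its 5′ peak was 1295 bp in control and 902 bp in knockdown. MRPL35 went from 1681 to 5968 bp (1.83), or from 4483 to 5968 bp over the locus (0.41). MRPL2, whose bacterial homologue binds near the peptidyl transferase centre, went from 2811 to 8943 bp (1.67), or from 4518 to 8943 bp over the locus (0.99). MRPS7 went from 3082 to 10150 bp (1.72), with the knockdown peak at the other end; its 5′ peak was 3082 and 3385 bp (0.14), and the locus of the knockdown peak held 7118 and 10150 bp (0.51). MRPL34 went from 1446 to 4391 bp (1.60) between different peaks, with a log2 ratio of -0.50 over the locus of the control peak and 1.56 over that of the knockdown peak.

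At the 5′ ends alone the 3 largest Pol II width ratios were at MRPL49, MRPL52 and MRPL20, and over the same loci they were much smaller. MRPL49, whose start lies 49 bp from that of FAU, the gene of a cytosolic ribosomal protein, had a 5′ peak that measured 2387 bp in control and 13602 bp in knockdown (log2 ratio 2.51). Over the locus of the knockdown peak, however, 2 control peaks already covered 11974 bp, a log2 ratio of 0.18. Nearly all of the knockdown peak lay upstream of MRPL49, since the peak reached 848 bp downstream of the start in control and 662 bp in knockdown. MRPL52 had 1366 and 5196 bp (1.93), or 7533 and 11364 bp over the locus (0.59). MRPL20 had 6277 and 16546 bp (1.40), where 1 knockdown peak took the place of 3 control peaks that together covered 13826 bp (0.26 over the locus). Downstream of the start the MRPL52 peak reached 1005 bp (control) and 4388 bp (knockdown). The MRPL20 peak reached 1922 and 11519 bp, in knockdown far past the end of the 5385 bp gene, where control had a separate peak of 6792 bp at the 3′ end. These 3 genes were picked after their values were seen.

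The narrowest control Pol II peaks were those of MRPL11 (770 bp, 1070 bp in knockdown), MRPL43 (1077 and 1298 bp) and MRPS26 (1247 and 1394 bp). MRPL11 thus had a narrower H3K4me3 peak and a wider Pol II peak in knockdown. The widest were those of MRPS34 (15719 and 16101 bp, chr16:1768843-1784561 in control), MRPS18B (10409 and 11707 bp) and MRPS16 (7566 and 5057 bp). The MRPS34 peak also marked ends of MAPK8IP3, NME3, EME2, SPSB3 and NUBP2, and that of MRPS18B ends of PPP1R10, so these widths belong to gene clusters.

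**Figure D4:**
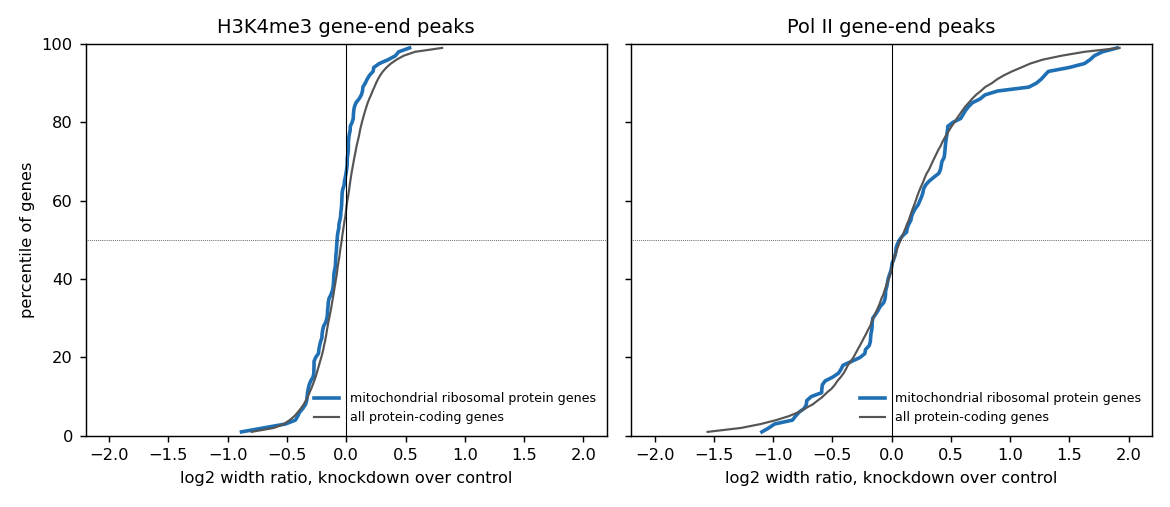
Cumulative distribution over genes (y axis, percentile) of the log2 ratio of peak width, knockdown over control (x axis), for mitochondrial ribosomal protein genes (blue) and all protein-coding genes (grey). The blue H3K4me3 curve lies left of the grey one over most of its course, with medians of -0.08 and -0.04, and the Pol II curves run together, with medians of 0.07 and 0.08.

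Peak positions overlapped between conditions about as often as those of all genes. In each mark 73 of 74 control gene-end peaks (98.6%, exact interval 92.7 to 100) were overlapped by a knockdown peak, against 99.4% over all genes for H3K4me3 and 95.5% for Pol II. The exceptions were MRPL45 for H3K4me3 and MRPS18C for Pol II, whose nearest knockdown peak lay 2332 bp off. The MRPS18C control peak was the widest one, at the 3′ end (2222 bp). At the 5′ end of MRPS18C a control peak of 2205 bp was overlapped by a knockdown peak of 2938 bp (log2 ratio 0.41). When the overlap had to cover at least 50% of each peak, 97.3% of H3K4me3 peaks (all genes 98.2%) and 85.1% of Pol II peaks (all genes 83.5%) passed.

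The marks sat around the start of the gene. Of the 69 genes with a known start, 67 had H3K4me3 within 1 kb of it in each condition (97.1%; background 67.5% in control and 67.7% in knockdown). Pol II was there at 66 in control (95.7%, background 58.8%) and 67 in knockdown (97.1%, background 61.0%). In control the median H3K4me3 peak reached 1304 bp upstream and 2363 bp downstream of the start, and the median Pol II peak 903.5 and 1117 bp. In knockdown the values were 1280 and 2374 bp for H3K4me3 and 919 and 1082 bp for Pol II. All genes gave 1244 and 2451 bp for H3K4me3 and 866 and 1141 bp for Pol II in control, so the reach on either side of the start was close to that of other genes. With every H3K4me3 peak over a gene counted, control peaks covered a median of 24.0% of the gene, and 10 of the 77 genes whole (13.0%, all genes 2.9%). In knockdown they covered 25.4%, and 7 genes whole (9.09%, all genes 2.76%).

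At the 5′ end alone the H3K4me3 result kept its direction. The peak was narrower in knockdown at 42 of 66 genes (63.6%, all genes 58.3%), with a median log2 ratio of -0.07 (all genes -0.04); 0 were over 1.5-fold wider and 2 over 1.5-fold narrower (backgrounds 1.74% and 1.99%). For Pol II it was narrower at 32 of 66 (48.5%, all genes 42.9%) and the median log2 ratio was 0.04 (all genes 0.07), with 10 genes over 1.5-fold wider and 9 over 1.5-fold narrower (backgrounds 16.1% and 8.99%). The median 5′ Pol II width was nonetheless lower in knockdown, 2051 bp against 2204.5 bp in control.

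The genes with a printed class of promoter motif did not all move alike at the 5′ end, and the differences between them were not tested. Among the 17 genes with either ETS site, Pol II was wider in knockdown at 12 and narrower at 5, with a median log2 ratio of 0.19. Among the genes without one it was wider at 22 and narrower at 27 (-0.04). The 6 NRF1 core genes had 5 wider and 1 narrower (0.44), and the genes without that core 29 and 31 (-0.02). The YY1 site genes had 6 wider and 7 narrower (-0.03), and those without the site 28 and 25 (0.04). Over all genes the 5′ Pol II peak was narrower at 42.9%, with a median log2 ratio of 0.07. MRPL27, with 3 ETS matches if overlapping ones are counted apart, went against the count of its class. H3K4me3 was narrower at 10 of the 17 ETS genes and at 6 of the 13 YY1 genes, with median log2 ratios of -0.06 and 0.01. Genes without an ETS site had 17 wider and 32 narrower, and those without the YY1 site 17 and 36. The median log2 ratio was -0.08 in each. Over all genes the 5′ H3K4me3 peak was narrower at 58.3%.

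In knockdown more Pol II peaks reached past the H3K4me3 peak. Of 65 genes with both marks at the 5′ end in control, 48 had the Pol II peak wholly inside the H3K4me3 peak (73.8%), against 37 of 67 in knockdown (55.2%). Over all genes the shares were 71.7% and 65.6%. Among MRPL genes the counts were 27 of 38 (71.1%) and 19 of 40 (47.5%), and among MRPS genes 21 of 27 (77.8%) and 18 of 27 (66.7%). Pol II was wider than H3K4me3 at 7 genes in control (10.8%, all genes 11.8%), namely MRPL20, MRPL53, MRPL57, MRPL58, MRPS15, MRPS18B and MRPS34. In knockdown it was wider at 12 (17.9%, all genes 13.9%): of those 7 all but MRPS15, with MRPL17, MRPL34, MRPL38, MRPL49, MRPL52 and MRPS6. MRPL58 encodes a peptidyl-tRNA hydrolase that frees stalled ribosomes.

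The cytosolic ribosomal protein genes looked different beside these. Their median Pol II gene-end peak was 8813 bp in control and 8059 bp in knockdown. All Pol II peaks over the gene, not the gene-end peak alone, covered a median of 100% of it in both conditions. For a mitochondrial ribosomal protein gene the share was 17.6% in control and 16.8% in knockdown, and over all genes 1.67% and 2.08%. Pol II was wider than H3K4me3 at 74.2% of them in control and 64.5% in knockdown. The median gene length was 5013 bp for the cytosolic set, 8618 bp for the mitochondrial set and 24130 bp over all genes, so the shares of the gene covered compare genes of unequal length. The difference between the sets was not tested.

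**Figure D5:**
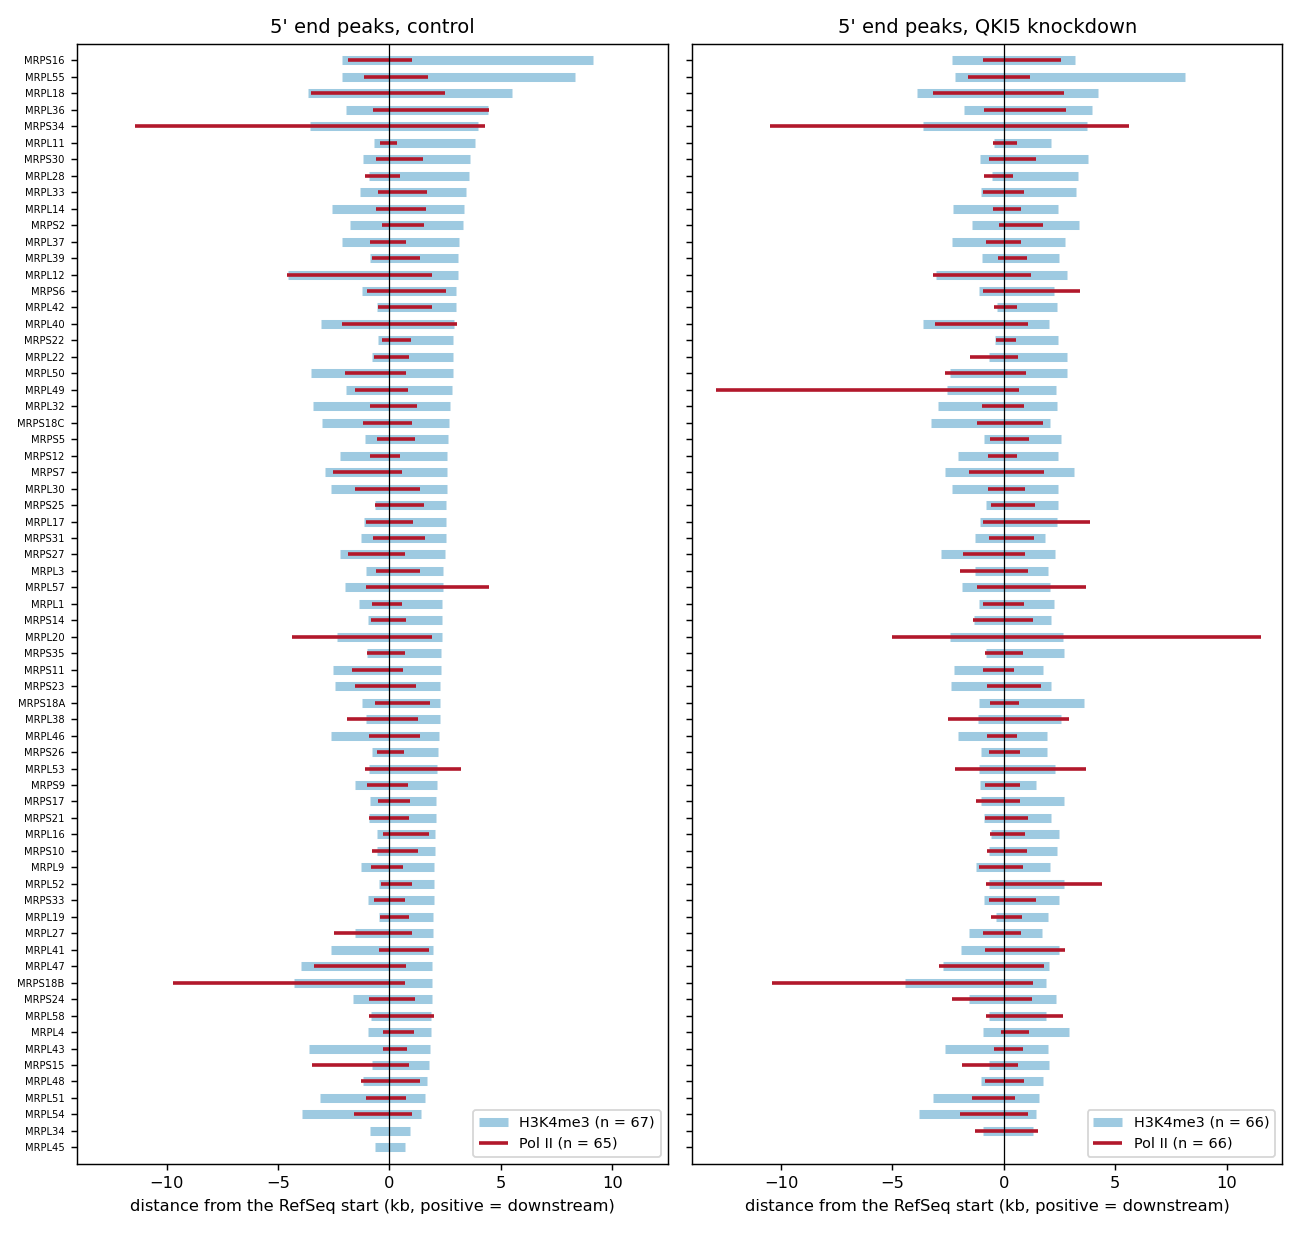
Reach of the 5′ end peak of each gene with a control H3K4me3 peak there (1 row per gene, ordered by how far that peak reaches downstream), in control (left) and QKI5 knockdown (right). The x axis is the distance from the RefSeq start in kb, positive downstream; pale bars are H3K4me3 and dark lines Pol II. Most Pol II lines lie within the pale bars, and those of MRPL20, MRPL49, MRPS18B and MRPS34 reach far outside them in knockdown.

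Pol II also marked the 3′ end of many of these genes, and H3K4me3 that of fewer, 19 of 69 in control (27.5%, background 11.1%) and 17 in knockdown (24.6%, background 10.9%). A Pol II peak lay within 1 kb of the 3′ end at 34 of 69 genes in control (49.3%, background 25.4%) and 38 in knockdown (55.1%, background 26.9%). The 3′ peak was separate from any 5′ peak at 27 in control (39.1%, background 21.5%) and 30 in knockdown (43.5%, background 23.0%). These backgrounds include genes without Pol II at the 5′ end, where 58.8% of all genes and 95.7% of members had it in control. The shares therefore do not compare equally marked genes. Neither these shares nor those of H3K4me3 compare genes of equal length, with medians of 8618 bp for members and 24130 bp over all genes. MRPL12, the stalk protein that is also known to bind mitochondrial RNA polymerase, had a separate 3′ peak, 5992 bp wide in control and 6720 bp in knockdown. MRPS14 had 5691 and 8507 bp, and MRPS21 2746 and 6500 bp. Some of these peaks also mark a neighbour: MRPL12's knockdown peak also marked SLC25A10, a mitochondrial dicarboxylate carrier gene.

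Many of the members share their peaks with other genes. The control H3K4me3 gene-end peak was also that of another protein-coding gene at 39 of 74 (52.7%, background 30.9%), and the Pol II peak at 35 of 74 (47.3%, background 35.0%). A divergent partner, with its start within 1 kb on the opposite strand, was found at 18 of the 69 genes (26.1%, background 10.1%). MRPL46 and MRPS11 are such a pair, a large- and a small-subunit gene whose starts lie 320 bp apart. They share 1 H3K4me3 peak (4832 bp in control, 4001 bp in knockdown) and 1 Pol II peak (2259 and 1375 bp, log2 ratio -0.72), so their values are not independent.

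The other divergent partners have varied roles, and the following are examples. MRPS12, a protein of the decoding centre, starts 181 bp from SARS2, the mitochondrial seryl-tRNA synthetase. MRPL18 starts 210 bp from TCP1, a subunit of the cytosolic chaperonin, and MRPL32 202 bp from PSMA2. MRPS27, a pentatricopeptide repeat protein, starts 133 bp from PTCD2, another protein of that repeat family. The shortest distances were those of MRPL27 and EME1, 45 bp, and of MRPL49 and FAU. At these genes a peak width cannot be assigned to either partner.

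QKI5 CLIP rows were few. The control list, 7337 rows, named 6 of the 77 genes in 13 rows (7.79%, exact interval 2.91 to 16.2), against 13.2% of all protein-coding genes. The knockdown list, 669 rows, named 1 gene in 1 row (1.30%, 0.0329 to 7.02), against 1.75%. In each list the interval holds the share over all genes. The members are shorter at the median than all genes (8618 against 24130 bp), and the difference in shares was not tested. No gene was in both lists. Adjoining rows merge to 8 sites in control. The reads, log2 enrichment and -log10 p of each row are the authors' own. The 13 control rows had 7 to 14 reads, a log2 enrichment of 3.38 to 6.73 and a -log10 p of 7.35 to 8.94, with medians of 10, 4.38 and 7.65, against 9, 5.92 and 8.13 over the whole control list. The lowest -log10 p in the control list was 7.0, and 3 of the 13 rows, at MRPL15, MRPL32 and MRPS27, lay above the list's median.

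MRPL32 had most rows. Its protein is a large-subunit component that the m-AAA protease must process before it can be assembled. An adjoining group of 3 rows on chromosome 7 held 14 reads at 42935038 to 42935079 (log2 enrichment 3.64, -log10 p 8.94), 13 reads at 42935080 to 42935125 (3.38, 7.66) and 13 reads at 42935126 to 42935136 (3.45, 7.86). The other row lay at 42937322 to 42937357, within 1 kb of the 3′ end, with 12 reads (3.60, 7.65). Of the adjoining rows, 2 overlapped the control H3K4me3 peak of the gene, 6163 bp wide.

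MRPL43 was the only member whose CLIP rows lay at its start. Its 2 adjoining rows, chr10:100987018-100987032 and chr10:100987033-100987082 on the minus strand, had 10 reads each and a log2 enrichment of 4.25 and 4.08. Both lay under the gene's control H3K4me3 and Pol II peaks and within 1 kb of its 5′ end.

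MRPL42, the gene with the largest Pol II narrowing, had 2 adjoining rows of 8 reads (log2 enrichment 5.34) starting at position 93484256 on chromosome 12, 34.4% of the way along the gene. MRPL48 had 2 adjoining rows of 7 reads (6.73) starting at 73792515 on chromosome 11. MRPS27 had 2 separate rows, of 7 reads (6.73) at chr5:72255274-72255298 and 10 reads (4.92) at chr5:72294848-72294916; the latter also overlaps the gene LOC107986422. MRPL15 had 1 row of 11 reads (4.38) at chr8:54147396-54147457, 91.8% of the way along the gene. The knockdown row was at MRPS6, chr21:34086477-34086574, with 13 reads (log2 enrichment 3.69, -log10 p 9.22). It also overlaps SLC5A3, which shares that locus, so its gene is uncertain. Exon and intron positions were not analysed here.

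The marking of the members was shared by most other genes of the mitochondrial translation machinery, while 55.6% of all protein-coding genes were in all 4 lists. Both marks were in both lists at 8 of 8 genes for other ribosome subunits and associated proteins, among them DAP3, PTCD3 and OXA1L, the insertase of the inner membrane. The same held at 28 of 28 assembly and ribosomal RNA modification genes, 15 of 16 translation factor genes (MSS51 had neither mark), 21 of 22 genes for mitochondrial aminoacyl-tRNA synthesis (FARS2 had neither) and 12 of 12 genes for mitochondrial DNA transcription and maintenance. Of 10 genes for factors known at promoters of such genes, all had H3K4me3 in both lists (background 66.6%). Pol II was at 9 (background 57.6%), all but the coactivator gene PPARGC1A. The median log2 ratio of H3K4me3 width in these 6 lists lay between -0.10 and 0.05.

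Past 1.5-fold, Pol II was wider at 2 and narrower at 0 of 8 other subunit genes, and at 2 and 3 of 28 assembly genes. The counts were 2 and 2 of 15 translation factor genes and 3 and 2 of 21 aminoacyl-tRNA genes. They were 2 and 2 of 12 mitochondrial DNA genes and 2 and 0 of 9 promoter factor genes. Over all genes the Pol II shares were 17.4% wider and 9.9% narrower, and those of H3K4me3 1.96% and 2.22%. No list was tested against them. The following examples were picked after their values were seen. H3K4me3 was over 1.5-fold narrower at TSFM, a mitochondrial elongation factor gene (3896 bp in control, 2476 bp in knockdown, log2 ratio -0.65), and at 0 other genes of the 6 lists in either direction. Pol II was over 1.5-fold wider at TUFM, the mitochondrial elongation factor Tu gene (10367 and 20192 bp, 0.96), at PTCD3 (3679 and 7537 bp, 1.03) and at DHX30, a helicase gene of mitochondrial ribosome assembly (2931 and 6076 bp, 1.05). Larger narrowings were at TWNK, the mitochondrial DNA helicase gene (26332 and 1298 bp, -4.34), at GARS1 (27669 and 4998 bp, -2.47), at YBEY (13356 and 4719 bp, -1.50) and at SLIRP (9281 and 3395 bp, -1.45). These are widest gene-end peaks, which can be different peaks in the 2 lists. At TWNK they were different peaks. Its knockdown peak is also that of MRPL43, and that locus held 1077 bp in control and 1298 bp in knockdown (log2 ratio 0.27). Locus sums were not taken for the other genes named here.

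CLIP rows were also found in these lists. In control they named DHX30, NOA1 and TRUB2 of the assembly genes, LRPPRC of the translation factors, CARS2, FARS2, NARS2, QRSL1 and RARS2 of the aminoacyl-tRNA genes, TFAM, and 4 promoter factor genes (ESRRA, MYC, NRF1 and PPARGC1B). By list the control counts were 0 of 8 other subunit genes, 3 of 28 assembly genes and 1 of 16 translation factor genes. They were 5 of 22 aminoacyl-tRNA genes, 1 of 12 mitochondrial DNA genes and 4 of 10 promoter factor genes. The share over all protein-coding genes was 13.2%, and the difference was not tested. In knockdown the rows named GTPBP6, 1 of the 28 assembly genes, and CARS2, 1 of the 22 aminoacyl-tRNA genes (background 1.75%). CARS2, the mitochondrial cysteinyl-tRNA synthetase, was the only one in both lists, at the same position on chromosome 13: 153 reads and a log2 enrichment of 7.72 in control, 28 reads and 4.33 in knockdown, starting at 110647477 in each.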

How the data were processed

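Peaks from 22 THP-1 samples were analysed as 6 lists, each of which merges a condition's replicates, according to the design text. HOMER and the genome build GRCh38.p5 are listed in the submitters' processing notes, with no role stated; for the aligner, the peak caller and its settings, the answer is not given in the sources used here. The 4 ChIP lists give positions and a score that the authors deposited as 1 for every peak, which was not used. Units of the CLIP lists were read from the values: −log10 p and log2 enrichment, both deposited by the authors, beside a read count inside the deposited peak name. Depth is unknown, so small differences cannot be weighed.

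Gene ends came from RefSeq's GRCh38.p14 table for chromosomes 1 to 22, X and Y; patch releases keep the coordinates of these chromosomes. Peaks within 1 kb of either gene end were assigned in Python 3.11.15 (pandas 2.3.3, numpy 2.4.6, scipy 1.17.1), tested on simulated data. Genes were named by rule: members missing a list, the 3 widest and 3 narrowest control peaks, the 5 largest rises and falls per mark, members with a CLIP row, peaks shared by members, listed genes with CLIP rows or a mark in 1 condition, and promoters with motif matches; genes outside it are said to be chosen later or serve as examples. Members and lists were chosen with earlier results of these data known. Alternatives varied the window, minimum width, gene end, peak choice, overlap and CLIP thresholds.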

Additional observations from a re-analysis of the deposited data

How the results depend on the processing

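Of 62 alternative values, 45 stayed within 1.5 times the count or within the interval of the value reported. With a window of 500 bp or of 5 kb, the count of genes with H3K4me3 in knockdown alone was 0 in place of 1. For Pol II in knockdown alone the count was 1 with a window of 5 kb (MRPL45) and 1 at the 5′ end alone (MRPL34), in place of 0. The number over 1.5-fold wider in H3K4me3 was 0, in place of 1, with the peak nearest the gene end, the 5′ peak or the summed width over the locus, and the number over 1.5-fold narrower was 1, in place of 2, with summed widths of both ends or of the locus. For Pol II over 1.5-fold wider, the sum over the locus of the control peak gave 8 in place of 14. That count depends on the list that sets the locus. Requiring 50% of each peak lowered the Pol II overlap to 85.1%. The 5′ peak and the locus sum were chosen after seeing the data. For CLIP, a -log10 p of at least 10 left 0 rows and 0 genes in control and 0 rows and 0 genes in knockdown; at least 10 reads, or merging adjoining rows, left 8 control rows of 13. The share with a narrower H3K4me3 peak in knockdown ranged from 63.6% to 67.1% over the 4 other ways to measure width, and for Pol II from 37.8% to 48.5%.

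No paired analysis was possible because each list pools both replicates, and for the same reason no replicate was left out in turn. The lists hold no reads per sample, so peaks on either side of the authors' threshold cannot be told apart from a difference between conditions.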

Other observations

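The RNA partner of these proteins also appeared in the CLIP lists. MT-RNR2, the mitochondrial gene of the large-subunit ribosomal RNA, had 4 control rows between positions 3180 and 3231 of the mitochondrial genome, with 15 to 162 reads and a log2 enrichment of 3.03 to 3.14. In knockdown it had 9 rows between 3046 and 3230, with 94 to 236 reads and a log2 enrichment of 3.62 to 4.12. The rows of each list adjoin, so each list holds a single stretch, and the row counts are not counts of sites. MT-RNR1, the small-subunit ribosomal RNA gene, had 0 rows in either list. Rows on the mitochondrial genome numbered 35 in control (0.477% of that list) and 20 in knockdown (2.99%). These values are the authors' own and, with 1 pooled list per condition, carry no test.

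Across genes, which are not independent replicates, the widths of H3K4me3 peaks of the members in control and knockdown had a Spearman rho of 0.85 (73 genes), and those of Pol II 0.66 (74 genes), against 0.91 and 0.82 over all genes. H3K4me3 width and Pol II width had a rho of 0.25 in control (73 genes) and 0.40 in knockdown (74 genes), against 0.56 and 0.59 over all genes. Neighbouring members share peaks, so these are descriptions.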
